A study of Mus musculus with 4 samples.

Results

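Stmn1, Cenpx, Lmo4, H2afz and Hmgn3 are 5 of the 31053 genes counted in single splenic germinal center (GC) B cells of mice heterozygous for Crebbp, Kmt2d or both. They were chosen by their summed counts in centrocytes, where each was higher in the double heterozygous library than in WT, with both single heterozygous libraries on the same side of WT. All groups were mice that carry Cre recombinase at the Cγ1 locus, which B cells switch on as they enter the GC reaction, so deletion is not directed at T cells or at resting B cells. WT carried no floxed allele, C (labelled C_het_KO) was Crebbp fl/+, K (K_het_KO) was Kmt2d fl/+, and CK (CK_het_DKO) was Crebbp fl/+ and Kmt2d fl/+. Mice were 8 weeks old, female and on a C57BL/6J background, and were immunized with sheep red blood cells 10 days before B220+IgD- cells were sorted from the spleen. Each genotype is 1 mouse and 1 droplet library, so no test between genotypes was possible and no p-value is given. All intervals are exact 95% intervals for counting error only, and the 3 comparisons C, K and CK over WT share the WT library.

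In a GC, centroblasts (CB) divide and mutate their antibody genes, and centrocytes (CC) test the mutated receptor and compete for T cell help. Stmn1 encodes stathmin, which binds tubulin and destabilizes microtubules and is abundant in dividing cells. Cenpx encodes a small histone-fold protein that pairs with Cenps, at centromeres and in the Fanconi anchor complex on DNA. H2afz encodes the histone variant H2A.Z, which the SRCAP and p400 complexes place at promoters. Hmgn3 encodes a nucleosome-binding protein of the high mobility group N family, and Lmo4 encodes a LIM-only adaptor that bridges transcription complexes through LDB proteins. Crebbp encodes a histone acetyltransferase and Kmt2d a methyltransferase for histone H3 lysine 4, both of which act at enhancers.

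The matrices held 8071 barcodes in WT and 9981 in C, with 8105 in K and 12852 in CK, and between 33270825 and 39803865 unique molecular identifiers (UMIs, each one counted RNA molecule) per library. The deposited annotation names 6 subtypes and covers 1227 cells in WT and 2041 in C, with 2583 in K and 3953 in CK. Its centrocytes carried the light zone markers Cd83, at 421 to 572 CPM (counts per 1000000 UMIs), and Cd86, at 119 to 149 CPM. The same libraries' centroblasts had only 60.3 to 86.7 CPM of Cd83. The cells of CK were the shallowest, with a median of 2670 UMIs per centrocyte against 4741 in WT, 3498 in C and 3811 in K. The annotation stops at 2500 genes per cell, and 43.8% of GC B cells found by clustering lay at or above that limit in WT and 26.1% in C, with 24.1% in K and 14.3% in CK. Of 38866 distinct barcodes, 143 were present in more than 1 library, 9 of them among annotated cells.

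All 5 genes are protein coding. Positions are from GENCODE vM21 on GRCm38. Stmn1 (ENSMUSG00000028832) lies at chr4:134468320-134473843 on the plus strand and H2afz (ENSMUSG00000037894) at chr3:137864487-137866922 on the plus strand. Cenpx (ENSMUSG00000025144) lies at chr11:120710942-120713738, Hmgn3 (ENSMUSG00000066456) at chr9:83109948-83146685 and Lmo4 (ENSMUSG00000028266) at chr3:144188530-144205220, all on the minus strand. No annotated gene overlaps Cenpx or H2afz, while the miRNA gene Gm23634 and the sense intronic transcript Gm43445 lie on the same strand within Stmn1 and Lmo4, and Gm2065 and Gm29054 lie antisense to Hmgn3. Within 400 bases of the transcript ends, where this chemistry reads, 21.4% of the 90-base windows of Stmn1 also occur in the annotated transcript Gm11223, and 21.6% of those of H2afz occur in Gm13007 or Gm8203. Reads from such windows could not be placed with certainty, and no such window was found for the other 3 genes.

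RefSeq promoter sequence was at hand for 3 of the 5 genes (GRCm38.p6), and the 250 bases before the most upstream start site are shown because the levels of H2afz and Cenpx ran together over subtypes and libraries (Pearson's r of 0.85), while Lmo4 ran less like them (0.64 and 0.50). Capitals mark CCAAT in either orientation, the motif of the factor NF-Y that is common in promoters of cell cycle genes. Each is written 5′ to 3′ on the strand of its gene.
H2afz, chr3:137864237-137864486 (+): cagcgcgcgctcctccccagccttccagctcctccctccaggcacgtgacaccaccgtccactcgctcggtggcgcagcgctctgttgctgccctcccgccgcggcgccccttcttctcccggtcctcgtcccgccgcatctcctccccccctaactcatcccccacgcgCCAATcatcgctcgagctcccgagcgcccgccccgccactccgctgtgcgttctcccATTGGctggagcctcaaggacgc
Cenpx, chr11:120713809-120714058 (-): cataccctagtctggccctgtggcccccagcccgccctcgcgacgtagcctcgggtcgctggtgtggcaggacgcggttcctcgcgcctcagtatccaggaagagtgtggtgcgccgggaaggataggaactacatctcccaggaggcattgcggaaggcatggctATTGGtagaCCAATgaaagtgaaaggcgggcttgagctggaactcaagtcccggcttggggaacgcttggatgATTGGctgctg
Lmo4, chr3:144205256-144205505 (-): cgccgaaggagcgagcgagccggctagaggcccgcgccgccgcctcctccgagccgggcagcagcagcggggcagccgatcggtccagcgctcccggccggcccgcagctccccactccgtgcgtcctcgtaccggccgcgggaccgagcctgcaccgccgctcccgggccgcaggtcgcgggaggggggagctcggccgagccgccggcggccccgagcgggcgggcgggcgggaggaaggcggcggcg
The H2afz promoter held 2 matches, starting 80 and 23 bases before the start site. The Cenpx promoter held 3, starting 84, 75 and 11 bases before it, and the Lmo4 promoter held none. Over all 32851 promoter windows of the same length, 33.8% held the motif on either strand. The GC box GGGCGG was present 1 time in H2afz, 1 time in Cenpx and 3 times, in copies that overlap, in Lmo4 (both strands searched), against 32.7% of all windows with at least 1. TTTGAA, a core of the cell cycle homology region, and TATAAA were found in none of the 3 windows, and in 16% and 12.4% of all windows. A match is a string of letters and was not tested as a binding site.

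In centrocytes, whose values chose the genes, Stmn1 was at 57.4 CPM in WT and 87.6 in C, with 139 in K and 133 in CK. Cenpx was at 60.7, 97.7, 81.5 and 104 CPM in the same order. H2afz was at 423, 553, 577 and 673 CPM. In each of these genes WT was the lowest of the 4 libraries. Hmgn3 was at 192, 216, 243 and 302 CPM, and Lmo4 at 71.1, 77.0, 107 and 117 CPM. The log2 ratio of CK over WT was 1.22 for Stmn1, 0.78 for Cenpx, 0.71 for Lmo4, 0.67 for H2afz and 0.65 for Hmgn3. Under the size rule rebuilt here (at least 100 CPM in CK or WT and at least 50 UMIs in both together), Hmgn3 at 0.648 was the last gene inside, and Dut at 0.642 and Sh3bgrl at 0.620 were the next outside. Of 8530 genes with at least 20 UMIs in the CK and WT centrocytes together, 7.17% were at least 1.5-fold higher in CK. All 5 genes passed that fold, as the choice required, and nothing is read from this count. Values from these centrocytes given later, per cell, split, weighted, binned by pseudotime or set against other cells, describe the same counts.

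**Figure D1:**
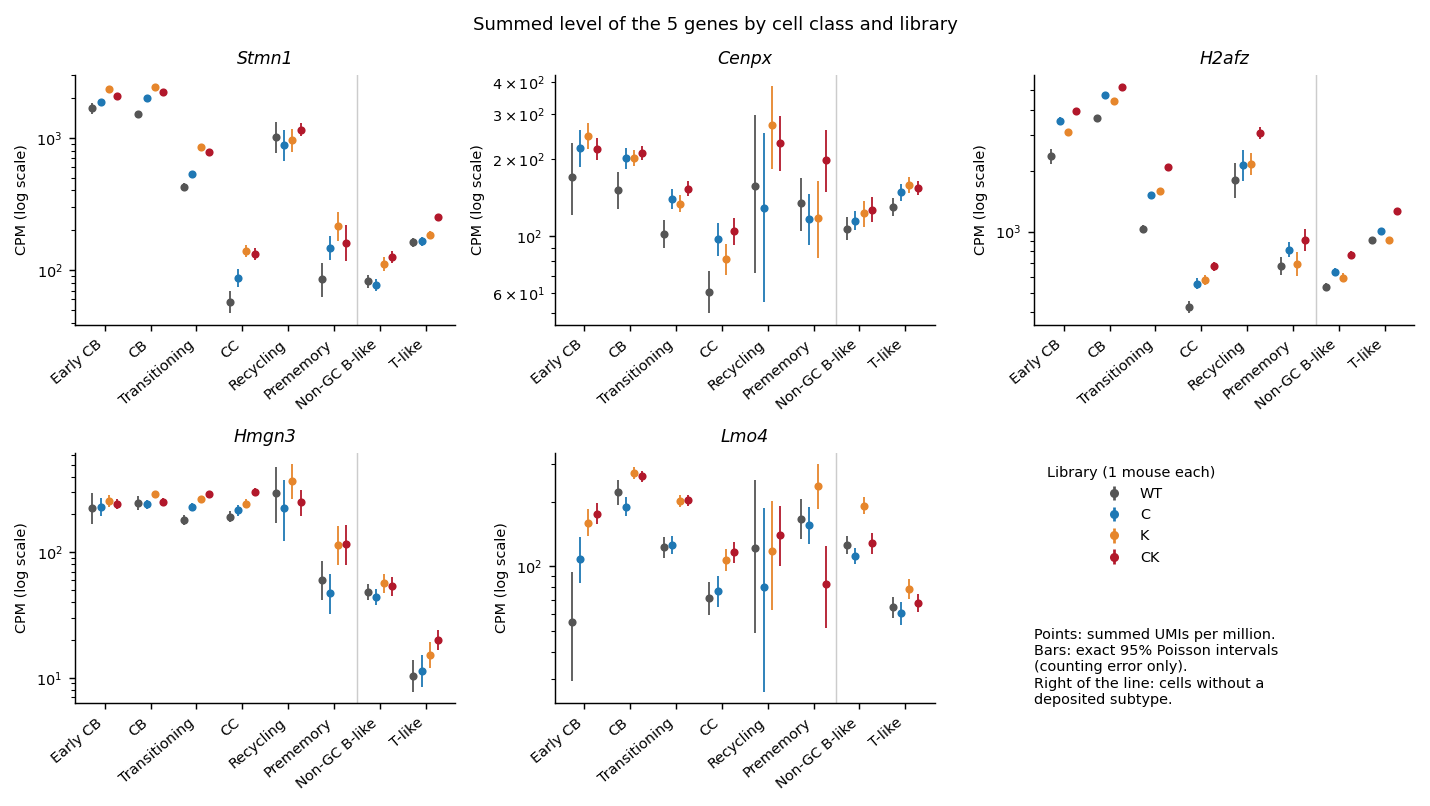
Summed level of each gene (y axis, CPM on a log scale) in the 6 annotated subtypes and in 2 classes of cells without a subtype (x axis), in the libraries WT, C, K and CK. Points are sums over the cells of 1 mouse and bars are exact 95% Poisson intervals. Stmn1 and H2afz stand at least 7.67-fold higher in CB than in CC in every library, while Hmgn3 is about as high in CC as in CB.

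Stmn1 had the steepest course of the 5 genes across the GC subtypes. In centroblasts it stood at 1519 CPM in WT and 1995 in C, with 2418 in K and 2213 in CK. In cells in transition between CB and CC it stood at 428, 536, 846 and 782 CPM. The level in CB was 26.5-fold that in CC in WT (21.7 to 32.6), 22.8-fold in C and 17.4-fold in K, and 16.6-fold in CK (14.9 to 18.5). The fold has the centrocyte level as its denominator, which chose the gene, so its order across libraries is a description. Early centroblasts lay near centroblasts, at 1670 CPM in WT and 2070 to 2350 in K and CK, and recycling cells, of which there were only 8 in WT and 49 in CK, at 884 to 1156 CPM. Prememory cells were low again, at 85.2 CPM in WT and 147 in C, with 216 in K and 161 in CK. The WT interval (62.1 to 114) lay below those of C, K and CK (lowest bound 117).

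H2afz was likewise highest in dividing centroblasts, with a shallower slope. Early centroblasts had 2355 CPM in WT and 3933 in CK. It was at 3664 CPM in WT centroblasts, 4756 in C and 4425 in K, and 5190 in CK. In transitioning cells it was at 1033, 1526, 1588 and 2083 CPM. WT was lowest and CK highest in both, with no overlap of their intervals. Centroblasts had 8.66-fold the centrocyte level in WT and 8.60-fold in C, with 7.67-fold in K and 7.72-fold in CK. Prememory cells had 678 CPM in WT and 814 in C, with 693 in K and 912 in CK, above the centrocytes of the same library in each case. Here the WT and K levels could not be told apart by their counting intervals.

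Cenpx changed less between subtypes. It was at 152 CPM in WT centroblasts, 201 in C and 203 in K, and 212 in CK, and at 102, 140, 134 and 153 CPM in transitioning cells. Its CB level was 2.50-fold the CC level in WT (1.94 to 3.23) and 2.03-fold in CK (1.78 to 2.32), with intervals that overlap. C, K and CK lay close together in CB, and WT lay below all 3. In prememory cells Cenpx was at 134 CPM in WT and 117 in C, with 118 in K and 199 in CK, from 35 to 77 UMIs per library. CK was the highest library there, but its interval (149 to 260) overlapped those of WT (105 to 170) and K (82.4 to 164). The intervals of WT, C and K also overlapped.

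Hmgn3 differed little between CB and CC. It was at 246 CPM in WT centroblasts and 192 in WT centrocytes, a ratio of 1.28 (1.08 to 1.51). In CK it was at 253 CPM in CB and 302 in CC, a ratio of 0.84 (0.77 to 0.92). The centroblast levels of WT and CK were close, and the 2 ratios differ through the centrocyte values that chose the gene. In transitioning cells Hmgn3 was at 182 CPM in WT and 231 in C, with 266 in K and 292 in CK, a full separation of WT from CK. Its lowest GC level was in prememory cells, with 60.6 CPM in WT and 47.1 in C, with 115 in K and 116 in CK, on 31 to 34 UMIs each. Prememory cells had 0.315-fold the centrocyte level in WT and 0.386-fold in CK.

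Lmo4 was higher in both libraries that carry the floxed Kmt2d allele. In B-like cells outside the GC annotation it was also higher in K, at 192 CPM against 126 in WT and 128 in CK. In transitioning cells it was at 123 CPM in WT and 126 in C, against 202 in K and 203 in CK. In centroblasts it was at 221 in WT and 190 in C, with 272 in K and 262 in CK. WT and C overlapped in both subtypes, as did K and CK, and in centroblasts the WT interval (193 to 253) also reached that of CK (248 to 277). Early centroblasts had 55.3 CPM in WT on only 13 UMIs, 108 in C and 160 in K, and 176 in CK. Prememory cells broke this order: Lmo4 was at 167 CPM in WT and 155 in C, with 237 in K and 82.6 in CK, where it rested on 22 UMIs. It was the only one of the 5 genes, in any annotated subtype, with a CK interval wholly below WT.

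**Figure D2:**
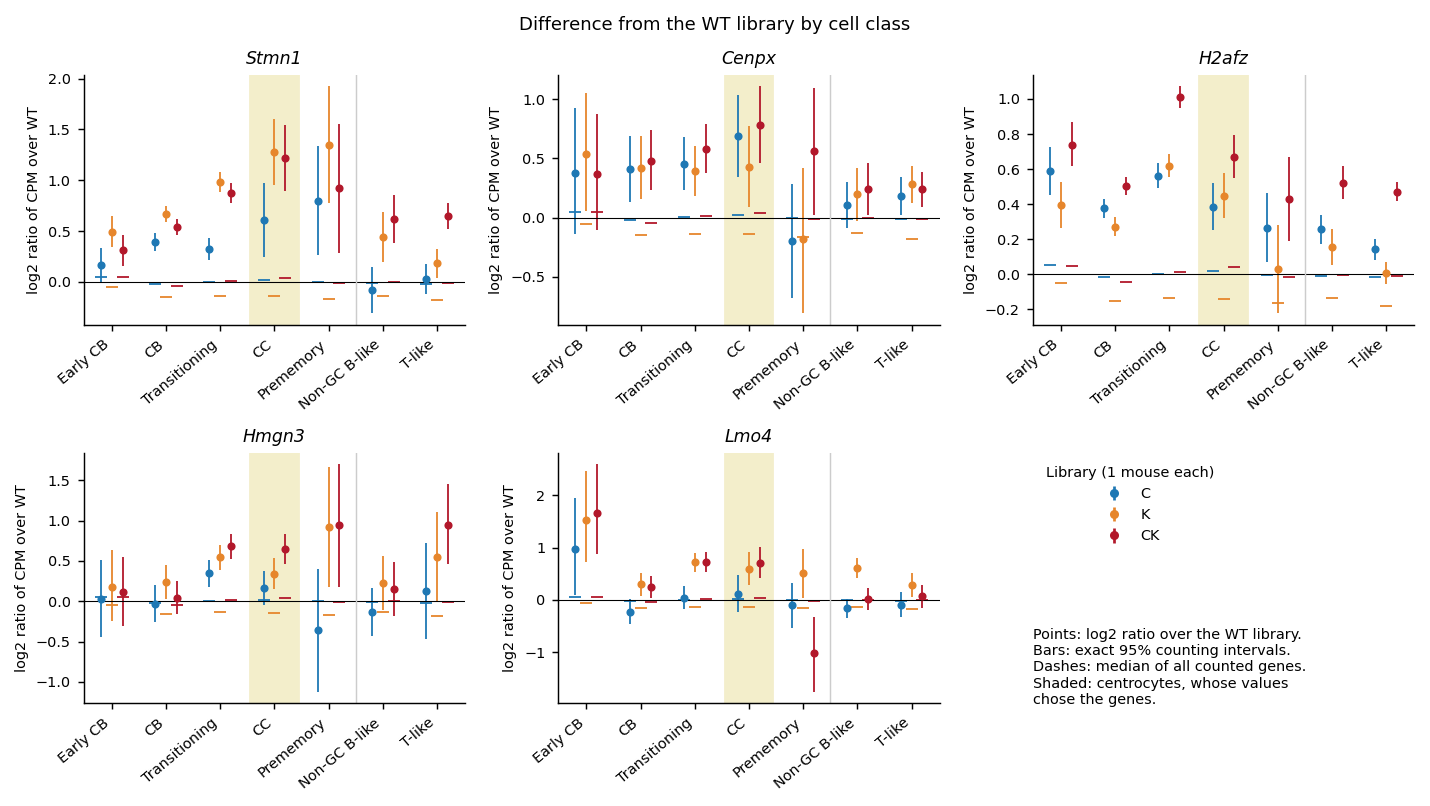
Log2 ratio of CPM over the WT library (y axis) for each gene by cell class (x axis) in C, K and CK, with exact 95% counting intervals and, as dashes, the median of all counted genes. In CK the points lie above 0 for all 5 genes in transitioning cells, and Lmo4 in prememory cells lies at -1.01.

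The question that these comparisons address is whether the heterozygous deletions change GC gene expression alone and together. Transitioning cells showed the difference most widely among the cells that were not used in the choice. H2afz was 2.02-fold its WT level in CK (log2 ratio 1.01, 0.95 to 1.07). Stmn1 was higher by a log2 ratio of 0.87 (0.77 to 0.97), Lmo4 by 0.73 (0.54 to 0.92), Hmgn3 by 0.68 (0.53 to 0.84) and Cenpx by 0.58 (0.38 to 0.79). At least 1.5-fold higher in CK were 4 of the 5 genes, against 7.97% of 9261 genes counted. In K 3 of the 5 passed that fold against 5.13%, and in C none did against 5.1%. The median over the 5 genes was 0.73 in CK, 0.62 in K and 0.35 in C, with a median of all genes of 0.01, -0.14 and 0.00. Adding the cells above the gene limit, 225 in WT and 91 in CK, lowered the CK ratio to 0.45 for H2afz, 0.29 for Stmn1, 0.29 for Cenpx, 0.53 for Lmo4 and 0.54 for Hmgn3.

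Centroblasts showed smaller differences. Stmn1 was higher in CK by a log2 ratio of 0.54 (0.46 to 0.62), H2afz by 0.50 (0.45 to 0.55) and Cenpx by 0.48 (0.23 to 0.74). Lmo4 was higher by 0.24 (0.03 to 0.46), and Hmgn3 differed by 0.04, with an interval from -0.16 to 0.25. None of the 5 genes reached 1.5-fold in CK, although 11.5% of all counted genes did. In K 1 of the 5 did, Stmn1 at 0.67, against 7.45%, and in C none did against 8.79%. With the cells above the gene limit added, the centroblast ratio of CK was 0.18 for Stmn1, 0.34 for H2afz, 0.34 for Hmgn3 and 0.57 for Lmo4.

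In early centroblasts, of which WT gave only 38 cells, 2 of the 5 genes passed the fold in CK against 16.7% of all genes. They were H2afz, at 0.74 (0.61 to 0.87), and Lmo4, at 1.67 (0.88 to 2.60). In prememory cells 2 of the 5 did against 8.94%, namely Hmgn3 at 0.94 (0.18 to 1.70) and Stmn1 at 0.92 (0.28 to 1.56). Cenpx there was at 0.57 (0.02 to 1.10) and H2afz at 0.43 (0.19 to 0.67). In recycling cells H2afz alone had a CK interval above 0, at 0.78 (0.48 to 1.09), and no member had one in C or K. In centrocytes 2 of the 5 passed the fold in K and 2 in C, with 4.6% and 5.71% of all genes, values that the choice also used. The median of all genes in K lay between -0.18 and -0.05 in the 5 larger subtypes and in the cells without a subtype, so a K ratio of 0 lies above that library's median gene.

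Set against the single heterozygous libraries rather than WT, CK did not stand above both for every gene. In transitioning cells H2afz in CK was above C by a log2 ratio of 0.45 (0.40 to 0.50) and above K by 0.39 (0.35 to 0.43). Hmgn3 was above C by 0.34 (0.21 to 0.46) and above K by 0.14 (0.03 to 0.24). Stmn1 was above C by 0.55 (0.47 to 0.62) but differed from K by -0.11 (-0.17 to -0.05). Lmo4 was above C by 0.69 (0.53 to 0.85), and its difference from K was 0.01 (-0.11 to 0.13). For Stmn1 and Lmo4 the K library was therefore at or above CK, and for H2afz CK exceeded both. Cenpx in CK was above K by 0.19 (0.05 to 0.34) and not separable from C, at 0.13 (-0.03 to 0.29). The median of all genes over WT in these cells was 0.01 in CK and -0.14 in K. Whether the small ratios of Hmgn3 and Cenpx over K exceed this offset between libraries was not tested.

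**Figure D3:**
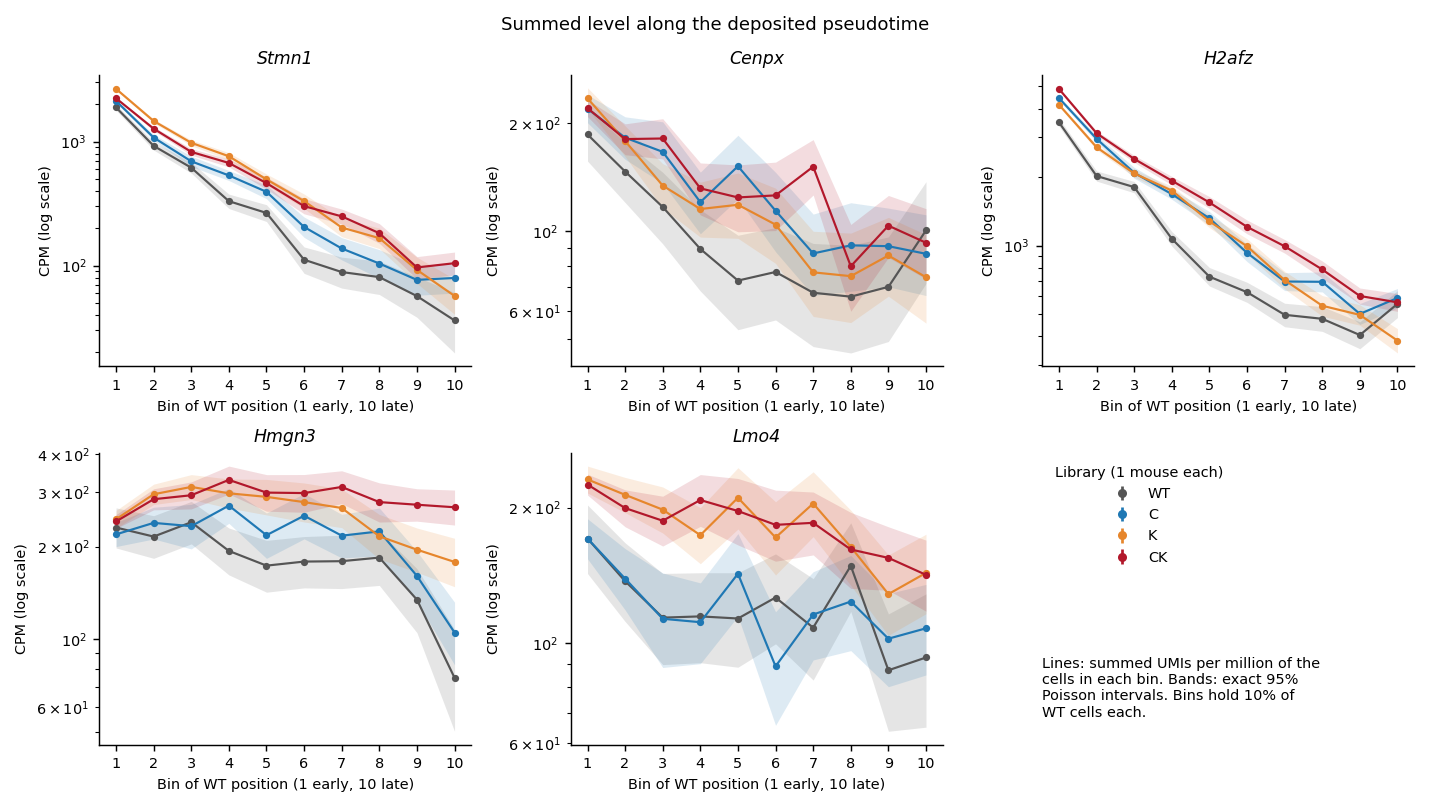
Summed level (y axis, CPM on a log scale) in 10 bins of the deposited pseudotime, read as the share of WT cells that come before a cell (x axis, bin 1 early and bin 10 late), with exact 95% Poisson bands for WT, C, K and CK. Stmn1 in WT goes from 1882 CPM in the first bin to 36.1 in the last, and Hmgn3 in CK is at 268 CPM in the last bin while WT is at 74.9.

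The deposited pseudotime orders the annotated cells from CB to CC and prememory cells. Stmn1 in WT fell from 1882 CPM in the first bin to 36.1 in the last, and in CK from 2231 to 105. H2afz in WT fell from 3479 to 405 CPM in the ninth bin, and in CK from 4877 to 601. In the last bin H2afz was at 555 CPM in WT and 564 in CK, a log2 ratio of 0.02 (-0.21 to 0.26). K lay below WT in that bin, at -0.54 (-0.80 to -0.27). Both genes were higher in CK than in WT in 10 of 10 bins, with intervals above 0 in 10 bins for Stmn1 and 9 for H2afz. The bins include the centrocytes that chose the genes, which were 70.5% of WT and 74.6% of CK cells in the ninth bin. The bin counts, here and below, are therefore a description and partly follow from the choice. The largest difference for H2afz lay in the fifth bin, at a log2 ratio of 1.08, where most cells were transitioning cells. Centroblasts, where H2afz was highest, were 8.20% of that bin in WT and 21.0% in CK. Transitioning cells were 13.8% of the eighth bin in WT and 47.9% in CK, so the middle bins also mix subtypes unequally. The part of this mix in the ratios was not tested. In C and K, too, Stmn1 was higher than in WT in 10 of 10 bins, with intervals above 0 in 7 and 9 bins.

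Hmgn3 differed between CK and WT by 0.07 in the first bin and by 1.84 in the last. Its WT level was 231 CPM in bin 1, 184 in bin 8, 134 in bin 9 and 74.9 in bin 10. In CK it was 241, 279, 274 and 268 CPM in the same bins. WT cells of the last bin were 71.5% prememory cells and 28.5% centrocytes, while those of CK were 21.2% and 75.8%, so the late bins hold different subtypes in the 2 libraries. These centrocytes are among the cells that chose Hmgn3, so its late-bin ratios partly follow from the choice. Lmo4 was higher in CK and in K in 10 of 10 bins, 9 of them with an interval above 0 in each, and in C in 5 of 10, none with an interval above 0. Cenpx was higher in CK in 9 of 10 bins, with intervals above 0 in 6, and its highest ratio was 1.17 in the seventh bin.

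Within the annotated centrocytes the libraries also differed in position. The median centrocyte lay behind 72.2% of WT cells in WT and 80.03% in C, with 80.2% in K and 85.7% in CK. When the centrocytes of every library were weighted to the WT positions, a choice made after seeing the data, the CK ratio was 1.37 for Stmn1, 0.90 for Cenpx, 0.79 for H2afz, 0.67 for Hmgn3 and 0.60 for Lmo4. The part of position in the centrocyte differences was not tested beyond these values.

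Per cell, centrocytes of CK more often had a UMI of these genes at equal depth, and those that did had more of them. After every cell was thinned to 2000 UMIs, which left out 12 WT and 161 CK centrocytes, 8.92% of WT centrocytes had at least 1 Stmn1 UMI (6.22 to 12.3), against 13.5% in C and 16.7% in K, and 19.0% in CK (16.3 to 21.9). Thinned cells with a Stmn1 UMI held 1.12 of them on average in WT and 1.35 in CK, and those with an H2afz UMI 1.58 and 1.88. Unthinned, with WT cells deeper, the Stmn1 shares were 20.7% in WT and 23.7% in CK. H2afz was detected in 49.5% of thinned WT centrocytes, 63.8% in C and 59.0% in K, and 67.1% in CK. Hmgn3 was detected in 111 of 370 thinned WT centrocytes (25.4% to 35.0%), and in 35.1%, 35.3% and 44.8% of those of C, K and CK. In thinned T-like cells, where the gene was lowest and whose median depth was 3217 UMIs in WT and 1918 in CK before thinning, its share was 1.69% in WT and 3.91% in CK. The centrocyte shares stood far above those of T-like cells. Unthinned, H2afz was detected in 81.7% of WT and 76.0% of CK centrocytes and Hmgn3 in 55.8% and 54.9%, so the order of these libraries rests on equal depth. In transitioning cells the share with at least 5 H2afz UMIs after thinning was 8.97% in WT and 31.9% in CK, with 19.9% in C and 21.7% in K.

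**Figure D4:**
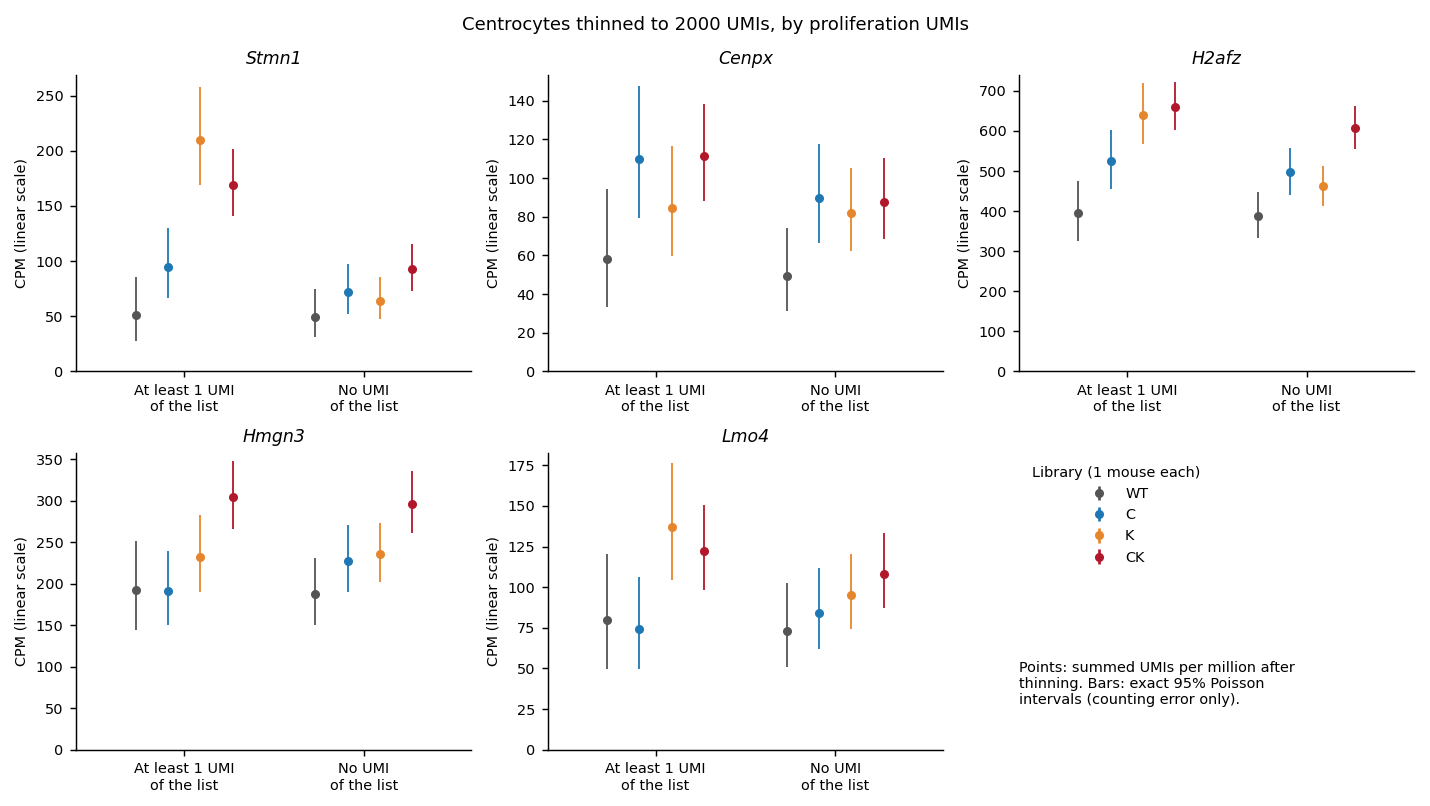
Summed level (y axis, CPM on a linear scale) in centrocytes thinned to 2000 UMIs, for cells with at least 1 UMI of the 16-gene proliferation list and for cells with none (x axis), in WT, C, K and CK with exact 95% Poisson intervals. H2afz and Hmgn3 in CK lie above WT on both sides of the split, and Stmn1 differs most among cells with a proliferation UMI.

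The sum over markers of dividing cells was highest in CK centrocytes, but the markers did not all follow these genes in C and K. A list of 16 proliferation genes such as Mki67 and Top2a summed to 265 CPM in WT centrocytes, 263 in C and 299 in K, and 365 in CK, and 37.3%, 40.7%, 37.4% and 47.0% of thinned centrocytes had a UMI of it. Before thinning, Mki67 alone was at 51.9 CPM in WT centrocytes and 56.3 in C, with 26.4 in K and 58.3 in CK. Centrocytes were split by that list after thinning. Among cells with a UMI of the list, Stmn1 was at 50.7 CPM in WT and 169 in CK, a log2 ratio of 1.74 (0.93 to 2.65). Among cells with none, it was at 49.6 and 92.5 CPM, a log2 ratio of 0.90 (0.21 to 1.64). In K the same 2 ratios were 2.05 and 0.37, the second with an interval from -0.38 to 1.16.

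The split divides the centrocytes that chose the genes, so it shows how their difference was spread over the cells. H2afz in CK was higher by 0.74 (0.44 to 1.05) in cells with a UMI of the list and by 0.65 (0.40 to 0.90) in cells with none. Hmgn3 was higher by 0.67 (0.23 to 1.13) and by 0.66 (0.30 to 1.03). Cenpx was higher by 0.94 (0.16 to 1.81) and by 0.82 (0.13 to 1.57), and Lmo4 by 0.62 (-0.07 to 1.36) and 0.56 (-0.02 to 1.18). Transitioning cells with no UMI of the list gave 1.32 (0.80 to 1.87) for Hmgn3, 1.03 (0.48 to 1.62) for Lmo4 and 0.56 (0.34 to 0.78) for H2afz. Without thinning, where more cells of the deeper WT library have a UMI of the list, the centrocytes with none gave 0.53 for Stmn1, 0.29 for Cenpx, 0.67 for H2afz, 0.93 for Hmgn3 and 0.32 for Lmo4. The part of proliferation in the differences was not tested beyond these values.

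Cells outside the GC annotation carried part of the same difference. All cells were clustered together, and those without a subtype were named from the marker genes of their cluster. In T-like cells, which express Cd3e at 1078 to 1134 CPM and are present although the sort was for B220, H2afz was at 909 CPM in WT and 1003 in C, with 914 in K and 1261 in CK. Stmn1 was at 162, 165, 184 and 253 CPM. Both were highest in CK, by log2 ratios of 0.47 (0.42 to 0.53) and 0.65 (0.52 to 0.77). Cenpx was higher by 0.24 (0.09 to 0.39), and Lmo4 differed by 0.07 (-0.15 to 0.29). At least 1.5-fold higher in CK were 2 of the 5 genes, Stmn1 and Hmgn3, against 3.73% of all genes. The proliferation list stood at 533 CPM in the WT T-like cells, 467 in C and 432 in K, and 745 in CK. Among thinned T-like cells without a UMI of that list, H2afz in CK was higher by 0.48 (0.36 to 0.60) and Stmn1 by 0.59 (0.22 to 0.97). Thinning left out 91 of 1332 WT and 1558 of 2761 CK T-like cells, so these values set the deeper CK cells against most WT cells. The part of proliferation and depth was not tested.

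Hmgn3 in T-like cells was low, at 10.4 CPM in WT and 11.4 in C, with 15.3 in K and 20.1 in CK. Markers of GC B cells, summed over 7 genes with none at 0, stood in the same cells at 123 CPM in WT and 116 in C, with 124 in K and 150 in CK. The part of free RNA from GC cells in these values was not tested.

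Among non-GC B-like cells, H2afz was at 531 CPM in WT and 634 in C, with 591 in K and 763 in CK, and Stmn1 at 82.0, 77.5, 111 and 126 CPM. CK was highest for both, by log2 ratios of 0.52 (0.43 to 0.62) and 0.62 (0.38 to 0.85). Of the 5 genes 1, Stmn1, passed 1.5-fold, against 3.89% of all genes. Hmgn3 differed by 0.15 (-0.18 to 0.49) and Cenpx by 0.24 (0.02 to 0.46). Lmo4 was at 126 CPM in WT and 112 in C, with 192 in K and 128 in CK, so only the K library stood apart, by 0.61 (0.42 to 0.80). These CK cells were shallow, with a median of 1195 UMIs against 2111 in WT. Only 126 of 1878 reached 2000 UMIs, and in those without a proliferation UMI H2afz differed by -0.05 (-0.39 to 0.28) and Stmn1 by -0.21 (-1.21 to 0.65).

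Lmo4 in CK differed least from WT in the T-like and non-GC B-like cells. Taken relative to its own ratio in T-like cells, the centrocyte ratio of CK was 0.65 for Lmo4, 0.57 for Stmn1, 0.55 for Cenpx and 0.20 for H2afz. It was -0.30 for Hmgn3, whose level in T-like cells was low, at 10.4 CPM in WT and 20.1 in CK. Relative to non-GC B-like cells the values were 0.69 for Lmo4, 0.60 for Stmn1, 0.54 for Cenpx, 0.50 for Hmgn3 and 0.15 for H2afz. In WT, C, K and CK the T-like, non-GC B-like and GC cells came from the same library. With 1 mouse and 1 library per genotype, differences between genotypes, between libraries and between mice cannot be told apart.

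Genes of the same families are given for CK over WT, beside 7.17% of all genes past 1.5-fold in centrocytes and 7.97% in transitioning cells. The share of all genes with an interval above 0 was not computed. Counts of such intervals, in these lists and along pseudotime, are therefore a description, and nothing is read from them. The members were chosen as the highest ratios in centrocytes, so no comparison with them is drawn there. Of the 5 other H2A variants, 4 were counted, none passed 1.5-fold in CK, and 3 had an interval above 0. They were H2afv, which encodes the second H2A.Z protein, at 0.42 (0.26 to 0.59), H2afj at 0.40 (0.20 to 0.61) and H2afy, a macroH2A gene, at 0.31 (0.11 to 0.50). Of 12 genes of the complexes that exchange H2A.Z, 1 passed the fold in centrocytes, near the share of all genes, Actr6 at 0.66 with an interval from -0.06 to 1.41. Anp32e, a chaperone that removes H2A.Z, was at 0.28 (0.09 to 0.47) in centrocytes and 0.54 (0.41 to 0.66) in transitioning cells. The median over the 12 genes was 0.14 in centrocytes, with 0.04 over all genes.

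The other 3 genes of the HMGN family reached at most 0.42 in CK centrocytes, and Hmgn1 alone had an interval above 0, at 0.16 (0.06 to 0.27). Of 5 HMGB and HMGA genes 4 were counted in transitioning cells, all 4 had an interval above 0 and 3 passed the fold, against 7.97% of all genes. Hmgb2, a chromatin protein of dividing cells, was at 0.67 (0.60 to 0.73) there and at 0.26 (0.11 to 0.40) in centrocytes. Stmn2, Stmn3 and Stmn4, the neuronal stathmins, were too low to be counted. Of 12 tubulin and microtubule genes 9 were counted, and in transitioning cells 4 passed the fold, against the same 7.97%, among them Tubb5 at 0.75 (0.65 to 0.85). In centrocytes none did in the higher direction.

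Cenps, the partner of Cenpx, was higher in CK by 0.33 (0.02 to 0.63) in centrocytes, 0.40 (0.23 to 0.57) in transitioning cells and 0.26 (0.01 to 0.51) in centroblasts. No other of the 5 genes of this complex and its Fanconi partners that were counted in centrocytes had an interval above 0. Of 15 other centromere genes 12 were counted in centrocytes, and 2 passed the fold in CK, Cenpe at 0.90 (0.16 to 1.69) and Cenpk at 1.21 (-0.05 to 2.67). In transitioning cells 8 of 15 did, against 7.97% of all genes, Cenpa at 0.78 (0.53 to 1.04) among them, with a median of 0.62. Of the 10 LMO and LDB genes 5 were counted in centrocytes, and Lmo2, the other LIM-only gene with counts there, was at -0.22 (-0.45 to 0.01). Ssbp4 was at -0.33 with an interval that ends just below 0. The median of these 5 was -0.23.

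The genes whose level ran most like each member were found over 19 combinations of subtype and library with at least 50 cells, by Pearson's r of log2(CPM + 1) among 2401 genes. The points share libraries and depth and include the centrocytes that chose the genes, so r is a description. Stmn1 was closest to Hmgn1 (0.98), Pclaf (0.97) and H2afz (0.97), and H2afz to Nsmce2 (0.98), Hmgb3 (0.97) and Stmn1. Cenpx was closest to H2afy (0.95), Snrpd1 (0.94) and Exosc8 (0.93). Hmgn3 was closest to Efnb1 (0.94), Jchain (0.93) and Mef2b (0.93), and its r with Cenpx was 0.18 and with Lmo4 0.10. Lmo4 was closest to Pih1d1 (0.86), Psma6 (0.84) and Rnaseh2c (0.83). Of the 5 genes, Stmn1, H2afz and Cenpx were thus most alike, with r of 0.81 to 0.97 among them. Lmo4 was less like them, with r of 0.64 with Stmn1, 0.64 with H2afz and 0.50 with Cenpx. Hmgn3 had r of 0.53 with Stmn1 and 0.46 with H2afz.

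**Figure D5:**
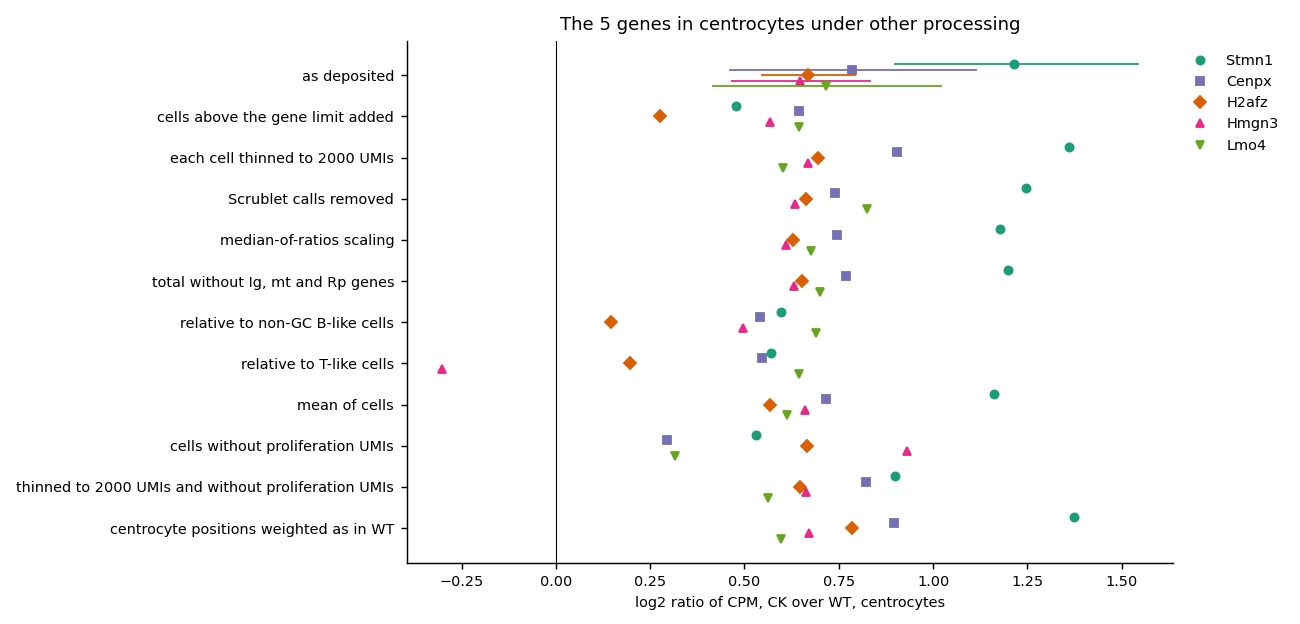
Log2 ratio of CPM of CK over WT in centrocytes (x axis) for the 5 genes as deposited, with exact 95% counting intervals, and under each other way of processing (y axis). Adding cells above the gene limit brings Stmn1 to 0.48 and H2afz to 0.28, and Hmgn3 falls below 0 only relative to T-like cells.

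The limit on genes per cell bears on the size of the centrocyte values. Cells at or above 2500 genes were given the most frequent label among their neighbours, which added 27 centrocytes in WT and 4 in CK. With them the CK ratio of Stmn1 was 0.48 in place of 1.22 and that of H2afz 0.28 in place of 0.67. Cenpx at 0.65, Lmo4 at 0.64 and Hmgn3 at 0.57 moved by less than their counting intervals. The direction was the same for all 5 genes.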

How the data were processed

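Splenic B220+IgD- cells of 1 mouse per genotype were profiled by 10x Genomics 3′ sequencing. The deposited matrices hold UMI counts per gene and barcode, which the authors made with Cell Ranger (3.0 in the submitters' processing notes) against mm10. The deposited cell table, made with Seurat 4.0, gives subtype, counts and genes per cell, the percent of mitochondrial UMIs, S and G2M module scores and a pseudotime rank score, all computed by the authors. The authors' counts per cell equalled the matrix sum in 79.9% of cells. Its stated genotypes were joined to the matrices by library and barcode.

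The members and the gene lists were chosen with earlier results of these data known. UMIs were summed per subtype and library and divided by the total (CPM). Levels have exact Poisson intervals, ratios exact conditional binomial intervals and shares Clopper-Pearson intervals, all at 95% and for counting error only. A gene was counted with at least 20 UMIs in both libraries together, and called at 1.5-fold. All 5 members passed this minimum in every comparison given for the 5 larger subtypes and the 2 classes. Genes named besides the members are those of the family and partner lists, the 3 genes most like each member, and the neighbours in the choice. All barcodes below 8% mitochondrial UMIs, with or without a subtype, were clustered (scanpy 1.11.5, leidenalg 0.10.2, 30 components, resolution 1). Clusters were named from markers, a name needing at least 3 and at least 50% of a class's markers, with no other class passing. Cells without a subtype took the name of their cluster. Doublets were called with Scrublet (3.32% to 5.01% of barcodes) and removed only as an alternative. Cells were thinned to 2000 UMIs with a fixed seed. Pseudotime position is the share of WT cells that come before a cell, in 10 bins. Positions are from GENCODE vM21 and promoters from RefSeq. The interval code was tested on simulated counts. Alternatives changed scaling, filters, doublets, depth, the gene limit, the reference cells and proliferating cells.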

Additional observations from a re-analysis of the deposited data

Results flagged for a closer look

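Lmo4 moved in opposite directions in different subtypes of the CK library. In prememory cells its log2 ratio over WT was -1.01 (-1.76 to -0.33), from 22 UMIs in 115 CK cells and 88 UMIs in 145 WT cells. In centrocytes the ratio was 0.71, a value that chose the gene. In K the prememory ratio was 0.51 (0.03 to 0.98). The difference between the subtypes was not tested, since each library is 1 mouse. CK prememory cells were shallow, with a median of 1991 UMIs against 3299 in WT, and the part of depth was not tested.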

How the results depend on the processing

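No paired analysis was possible because each genotype is 1 library, so no replicate was left out. Of 75 ratios (5 genes, 5 subtypes, 3 genotypes over WT), the sign was kept in 75 with Scrublet calls removed, 74 with median-of-ratios scaling, 74 with immunoglobulin, mitochondrial and ribosomal protein genes out of the total, 73 with thinned cells, 71 after adding cells above that limit of 2500 genes, 70 with the mean over cells, 62 relative to T-like cells and 62 relative to non-GC B-like cells. It was kept in 38 of 45 among cells without proliferation UMIs, 42 of 44 when these were also thinned, and 15 of 15 with centrocyte positions weighted, an alternative chosen after seeing the data. Centroblasts gave no value without proliferation UMIs, since fewer than 20 such cells were left.

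The turned ratios listed next are those whose interval as reported lay wholly on one side of 0. The other sign changes were of ratios whose interval spanned 0, among them Hmgn3 in CK relative to T-like cells, at -0.91 in centroblasts and -0.84 in early centroblasts, and Lmo4 in C prememory cells without proliferation UMIs, at 0.93. Relative to non-GC B-like cells, Stmn1 of CK turned to -0.31 in early centroblasts and -0.075 in centroblasts, H2afz to -0.020 in centroblasts (also the median of the 5 genes there) and -0.094 in prememory cells. In K, Lmo4 turned to -0.31 in centroblasts, -0.013 in centrocytes and -0.10 in prememory cells (also the median of the 5 there). Relative to T-like cells, in CK, Stmn1 turned to -0.34 in early centroblasts and -0.10 in centroblasts, H2afz to -0.044 in prememory cells, and Hmgn3 to -0.27 in transitioning cells, -0.30 in centrocytes and -0.0095 in prememory cells (also the median there). In K, Hmgn3 turned to -0.32, -0.0055 and -0.21 in centroblasts, transitioning cells and centrocytes. Without proliferation UMIs, Hmgn3 in CK prememory cells turned to -0.25, H2afz in K transitioning cells to -0.095 and Stmn1 in K centrocytes to -0.15. With cells above the gene limit, Stmn1 in C transitioning cells turned to -0.030. The cause was not tested.

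The median of the 5 genes in CK transitioning cells, 0.73, moved to 0.45 with cells above the limit, 0.49 relative to non-GC B-like cells, 0.34 relative to T-like cells and 0.42 without proliferation UMIs, and that in CK centroblasts, 0.48, moved to 0.030 relative to T-like cells. Genes called higher in CK centrocytes, 612, numbered 295 with at least 50 UMIs, 1757 with no filter and 150 at 2-fold. In transitioning cells, 738 became 441, 1267 and 243, and in centroblasts 1012 became 414 at 2-fold. By Spearman's rho, at least 2 of the 3 most like genes stayed for 1 of the 5 members, H2afz.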

Other observations

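Small classes outside the GC annotation gave further values of these genes. Natural killer-like cells numbered 56, 57, 55 and 87 in WT, C, K and CK, and their Stmn1 stood at 116, 153, 313 and 394 CPM. The log2 ratio over WT was 1.43 (0.71 to 2.19) in K and 1.76 (1.08 to 2.49) in CK. H2afz in the same cells was higher in CK by 0.37 (0.19 to 0.55). The proliferation list stood at 227 CPM in the WT and 726 in the CK cells of this class, and its part in these values was not tested.

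Plasma-like cells numbered 44, 54, 67 and 72. Their H2afz stood at 432, 768, 428 and 678 CPM in WT, C, K and CK. The log2 ratio over WT was 0.83 in C and 0.65 (0.44 to 0.87) in CK, against -0.01 in K. The median of all counted genes over WT had the same order, at 0.19 in C, 0.13 in CK and -0.13 in K. Median depth was 15735 UMIs in WT and 10806 in C, with 13676 in K and 9879.5 in CK. The part of this offset and of depth in the H2afz values was not tested. Stmn1 in K plasma-like cells lay below WT, at -0.65 (-1.10 to -0.21). The proliferation list had the same order of libraries as H2afz, at 637, 1039, 511 and 952 CPM.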
